A study of Bos taurus with 12 samples.

Results

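Genes of the dermal extracellular matrix were followed in cultured skin of cattle with and without the SLICK1 allele: COL1A1 (ENSBTAG00000013103), COL1A2 (ENSBTAG00000013472), COL3A1 (ENSBTAG00000021466), SPARC (ENSBTAG00000014835) and DCN (ENSBTAG00000003505). They were chosen by gene ID for their roles in the dermis, with earlier results of these data known. They make up 5 of the 27607 genes of the count table. All 5 were among the 14594 genes with enough counts to be tested. SLICK1 alters the receptor for prolactin, and cattle that carry it have short, sleek hair. Explants came from Holstein heifers, half-sisters by 1 of 2 slick bulls that carried the allele in heterozygous form. The labels give 6 libraries of the genotype Slick and 6 of the genotype Wild type, called slick and non-slick here. Every explant of both genotypes was cultured for 36 h at 38.5 °C with ovine prolactin at 50 ng/mL and hydrocortisone at 0.4 µg/mL, so that no explant without prolactin or without hydrocortisone was compared. Whether slick heifers carried 1 or 2 copies of the allele, their age, and the sire and plate of each library are not given in the labels. The labels do not say that each library is a separate heifer, and each p-value therefore rests on the spread from library to library, which may be technical.

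Type I collagen is the main fibre-forming protein of the dermis, and its triple helix joins chains encoded by COL1A1 and COL1A2. COL3A1 encodes the chain of type III collagen, which forms finer fibrils together with type I and is prominent in young and healing skin. SPARC encodes osteonectin, a secreted glycoprotein that binds collagen and calcium, and DCN encodes decorin, a small leucine-rich proteoglycan that coats collagen fibrils and limits their growth. In skin these genes are expressed mainly by fibroblasts. Glucocorticoids such as hydrocortisone are known to lower collagen synthesis in skin.

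Total counts ran from 10903164 to 22036904 per library, and slick 2 had the lowest. Slick 4 lay farthest out on the first principal component of all tested genes, at 62.96, where the other libraries ran from -31.99 to 29.29. The 5 genes had between 2166 and 27818 counts in each library, so counting error alone was at most 2.15% of a value. The symbols of the 5 IDs came with the choice of genes, and neither the count table nor the RefSeq table used here pairs them. Markers of fibroblasts, keratinocytes, endothelium, leukocytes, smooth muscle, fat cells and melanocytes, and the other collagen, cross-linking and degrading genes, could not be joined to the IDs and were not analysed here. The make-up of the explants was therefore not measured, and in whole explants fewer fibroblasts and less RNA per fibroblast cannot be told apart. Levels are given as CPM, counts scaled to a common library total with factors from the TMM method. They are not divided by transcript length, so that levels are compared between libraries and not between genes.

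None of the 5 matrix genes differed between genotypes at the threshold of an adjusted p of 0.05. COL1A1, COL1A2, COL3A1 and SPARC were fitted 1.17-fold to 1.31-fold higher in slick explants and DCN 0.836-fold, differences within the spread of the libraries. An estimate above 0 was found for 4 of the 5 genes and for 50.6% of all tested genes. The quasi-likelihood test of edgeR, fitted on 14594 genes with Benjamini-Hochberg adjustment, called 0 of the 5, where 0% of all tested genes were called. At an unadjusted p of 0.05 it also listed 0 of the 5, against 5.56% of all tested genes (811 genes). With limma-voom 0% of tested genes were called and 6.11% had an unadjusted p under 0.05. With DESeq2 4 of the 18374 genes given an adjusted p (0.0218%) were called. It gave 1098 genes an unadjusted p under 0.05, a number equal to 5.98% of those 18374. Genes without an adjusted p could also be among the 1098. Neither tool called or listed a matrix gene. The median absolute log2 fold change of the 5 genes was 0.26, beside 0.14 over all tested genes, and their median standard error was 0.22, beside 0.18. For none of the 5 did slick and non-slick values separate without overlap, which happened for 0.281% of tested genes.

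COL1A1, which encodes the α1 chain of type I collagen, ranged between 250.7 and 478 CPM in the slick group, with a median of 315, and between 184 and 499.9 CPM in the non-slick group, with a median of 269.8. The groups overlapped: the highest value of all 12 was that of non-slick 5, while 2 other non-slick libraries lay below every slick library. The mean CPM was 337 ± 81.7 in the slick group and 289 ± 112 in the non-slick group (SD, n = 6 each). The edgeR log2 fold change of COL1A1, slick minus non-slick, was 0.22 (SE 0.22, adjusted p = 0.875). Its 95% interval ran from 0.844-fold to 1.61-fold.

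COL1A2, the gene of the α2 chain that joins the product of COL1A1 in the same helix, ranged between 175 and 321 CPM in the slick group (median 280.4) and between 153 and 347 CPM in the non-slick group (median 204). Again non-slick 5 was the highest and non-slick 2 the lowest of all 12, and 5 of 6 slick libraries lay above the non-slick median. Its log2 difference was 0.22 (SE 0.19, edgeR adjusted p = 0.861), and the 95% interval ran from 0.885-fold to 1.54-fold. The point estimate of COL1A2 was thus close to that of its partner chain.

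COL3A1, the type III collagen gene, varied more. It ranged between 214 and 588 CPM in the slick group (median 437) and between 184 and 612 CPM in the non-slick group (median 281). Slick 6 and non-slick 5 held the highest values, and slick 1 was the lowest of its group and lay among the low non-slick libraries. COL3A1 had the largest fitted difference of the 5 genes, a log2 fold change of 0.39 (SE 0.29, edgeR adjusted p = 0.849). Its 95% interval, from 0.855-fold to 2.01-fold, was the widest of the 4 genes with a higher slick estimate.

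SPARC, the collagen-binding glycoprotein, ranged between 621 and 1190.05 CPM in the slick group (median 911) and between 592 and 917 CPM in the non-slick group (median 781). In 3 of 6 slick libraries SPARC was above every non-slick library, with slick 4 the highest and slick 2 next, while slick 1 lay near the bottom of both groups. The mean CPM was 927 ± 214 in the slick group and 752 ± 118 in the non-slick group (SD, n = 6 each). The edgeR log2 fold change of SPARC was 0.30 (SE 0.16). Its unadjusted p of 0.0773 was the smallest of the 5 genes, and the adjusted p was 0.839. Of all tested genes, 9.04% had a p at least as small. The 2 highest values belong to the library with the lowest depth and the one farthest out on the first component. Without slick 2 and slick 4 the log2 fold change fell to 0.12 (SE 0.16). With libraries scaled by their totals alone it was 0.37, at an unadjusted edgeR p of 0.0439, adjusted to 0.859. Under that scaling 3.97% of all tested genes were higher in slick at an unadjusted edgeR p under 0.05. These were 579 genes, with 214 lower, where TMM scaling gave 442 higher and 369 lower. Scaling by totals thus moved the whole table toward higher slick values.

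DCN, the decorin gene, was the 1 member with a lower slick estimate. It ranged between 326 and 697 CPM in the slick group (median 522) and between 343 and 1112 CPM in the non-slick group (median 532), so the medians were close and the groups overlapped. Non-slick 5 stood at the top, and slick 4, the highest library for SPARC, was the lowest of all 12 for DCN. Its log2 fold change of -0.26 (SE 0.28, edgeR adjusted p = 0.880) had a 95% interval from 0.552-fold to 1.27-fold. Without non-slick 5 it was 0.01, so that the lower slick mean of DCN rested on that library.

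**Figure D1:**
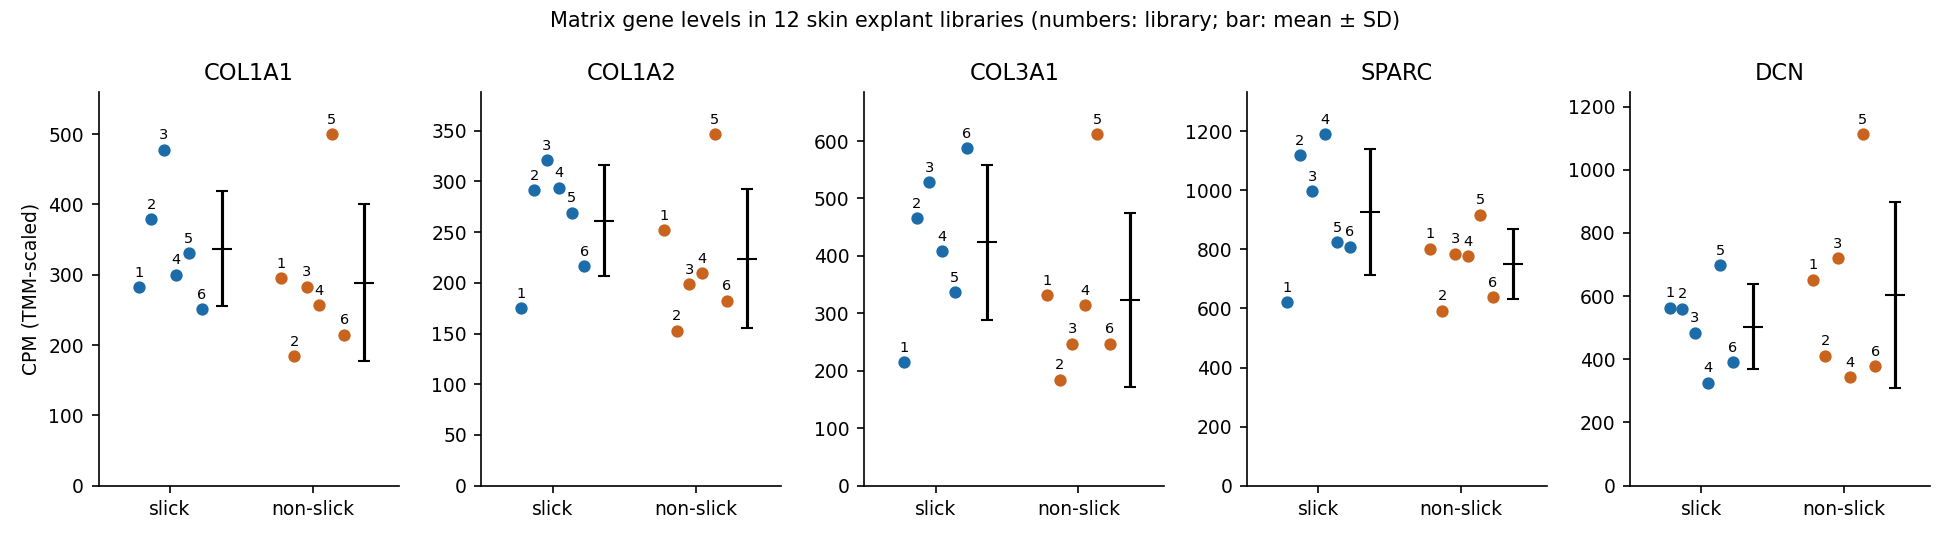
TMM-scaled CPM of the 5 matrix genes (vertical axes, one scale per gene, starting at 0) in each slick and non-slick library, with the replicate number above each point and the mean ± SD beside each group (n = 6). Non-slick 5 was the highest library for COL1A1, COL1A2, COL3A1 and DCN, and slick 4 the highest for SPARC and the lowest for DCN.

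A single non-slick library, when left out, moved the estimates of the collagen genes and DCN more than any other library did. The estimate of SPARC moved more without slick 1 (0.39) or slick 4 (0.22). Non-slick 5 had 499.9 CPM of COL1A1, 347 CPM of COL1A2, 612 CPM of COL3A1 and 1112 CPM of DCN, each above the other 11 libraries, and 917 CPM of SPARC, the highest of its group. The 5 genes together took 0.352% of its counts, while the other non-slick libraries ran from 0.140% to 0.235% and the slick libraries from 0.182% to 0.295%. Its total count and TMM factor, 20128247 and 1.01, lay inside the range of the other libraries, and the RNA quality and cell make-up of this explant were not tested. Without non-slick 5, the edgeR log2 fold change was 0.45 for COL1A1 (SE 0.17, unadjusted p = 0.0188), 0.39 for COL1A2 (SE 0.16, unadjusted p = 0.0289), 0.68 for COL3A1 (SE 0.23, unadjusted p = 0.0102) and 0.37 for SPARC (SE 0.17, unadjusted p = 0.0446). These 4 of 5 genes were then listed as higher at an unadjusted p of 0.05, beside 2.80% of the 14717 genes tested. The adjusted p of each was 0.886, no gene of the table was called (0%), and non-slick 5 was singled out after its values were seen. Because the 4 genes vary together, as shown next, their 4 results are not independent of each other. Leaving out slick 1, the lowest slick library for COL1A2, COL3A1 and SPARC, gave an unadjusted edgeR p of 0.0175 for SPARC (log2 fold change 0.39, adjusted p = 0.656), where 4.10% of tested genes were listed as higher. Removing slick 3 took COL1A1 down to 0.10, and removing non-slick 2, the lowest library of that group for these 4 genes, took COL1A1 to 0.13 and COL1A2 to 0.14. Without slick 2 and slick 4, the libraries that stood apart in depth and on the first component, the log2 fold change was 0.22 for COL1A1, 0.14 for COL1A2, 0.37 for COL3A1 and -0.17 for DCN.

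**Figure D2:**
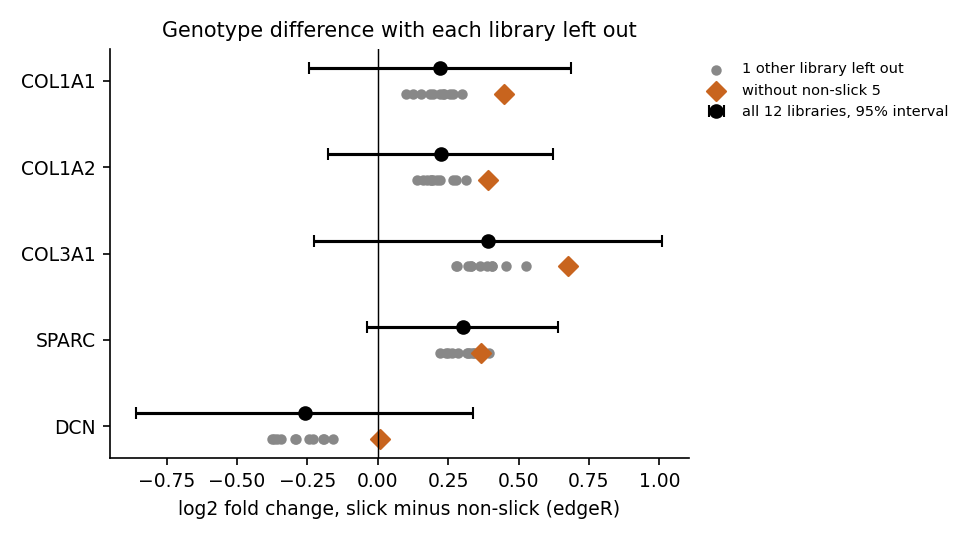
Log2 fold change, slick minus non-slick, of each matrix gene in edgeR (horizontal axis): black circles with 95% intervals use all 12 libraries, grey points leave out 1 library each, and diamonds leave out non-slick 5. All 5 intervals include 0. The diamonds lie at 0.45, 0.39, 0.68, 0.37 and 0.01 from COL1A1 down to DCN.

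Across libraries the collagen genes and SPARC rose and fell together. Pearson's r of log2 CPM over 12 libraries was computed for the 10 pairs of genes, with 100000 permutations per pair and Benjamini-Hochberg adjustment over the 10. All 6 pairs among COL1A1, COL1A2, COL3A1 and SPARC passed an adjusted p of 0.05, and none of the 4 pairs with DCN did. Without non-slick 2 the number of pairs that passed was 3: COL1A1 with COL3A1, COL1A1 with SPARC and COL3A1 with SPARC then missed it, with adjusted permutation p of 0.0759, 0.0799 and 0.0545. Without non-slick 6, COL1A1 with SPARC missed it at an adjusted permutation p of 0.0508. The partner chains COL1A1 and COL1A2 gave the highest r, 0.90 (permutation p = 3.0e-05, adjusted p = 3.0e-04; Spearman's rho 0.90, permutation p = 2.0e-04, adjusted p = 8.67e-04). Among all other tested genes, COL1A2 was the 6th closest to COL1A1 by r and COL1A1 the 5th closest to COL1A2, where the median r of a tested gene with COL1A1 was 0.01. Without the 2 libraries farthest from the median of COL1A1, slick 3 and non-slick 5, r of the pair was 0.84. The other pairs of the 6 stood lower in the order of all tested genes. SPARC took place 10 and COL3A1 place 24 for COL1A2, and SPARC took place 75 for COL3A1. COL3A1 took place 139 and SPARC place 217 for COL1A1, and COL1A1 took place 395 for SPARC. An r above 0.7 with a given one of the 5 genes was found for 1.27% to 2.51% of all tested genes.

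COL1A2 also went with SPARC, at r 0.87 (permutation p = 1.9e-04, adjusted p = 9.5e-04; rho 0.92, permutation p = 1.1e-04, adjusted p = 8.67e-04), and with COL3A1, at r 0.84 (permutation p = 0.00102, adjusted p = 0.0034; rho 0.89, permutation p = 2.6e-04, adjusted p = 8.67e-04). Without non-slick 2 and non-slick 5 these were 0.89 and 0.72. COL3A1 and SPARC gave r 0.76 (permutation p = 0.00488, adjusted p = 0.0122; rho 0.83, permutation p = 0.00151, adjusted p = 0.00377), and 0.71 without the same 2 libraries. For COL1A1, r was 0.73 with COL3A1 (permutation p = 0.00694, adjusted p = 0.0139; rho 0.70, permutation p = 0.0136, adjusted p = 0.0227) and 0.69 with SPARC (permutation p = 0.0121, adjusted p = 0.0201; rho 0.80, permutation p = 0.00229, adjusted p = 0.00458). Without slick 3 and non-slick 5 the first became 0.54 and the second 0.74. After the mean of each genotype was removed, the 6 pairs had an r between 0.64 and 0.89 and passed the threshold, as did COL1A1 with DCN, at r 0.70 (adjusted permutation p = 0.0209). The permutations shuffled these deviations across both genotypes and made no allowance for the removed means, so that their p can be too small. Within the 6 non-slick libraries, r of the 6 pairs ran from 0.88 to 0.98. Non-slick 5 was the highest and non-slick 2 the lowest of that group for each of these genes. The r within the non-slick group without either library was not computed. Within the 6 slick libraries r was 0.88 for COL1A2 with SPARC and 0.74 for COL1A1 with COL1A2. It was lower for COL3A1 with SPARC (0.62), COL1A2 with COL3A1 (0.60), COL1A1 with SPARC (0.46) and COL1A1 with COL3A1 (0.27). These values are given without a test, and the difference between genotypes was not tested. Over both genotypes without slick 2 and slick 4, r of the 6 pairs ran from 0.72 to 0.93, and all 6 passed the threshold.

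Over 12 libraries the r of DCN with each other gene was below those of the 6 pairs, but whether its correlations differ from theirs was not tested. With genotype means removed, r of COL1A1 was 0.70 with DCN, 0.69 with COL3A1 and 0.64 with SPARC. Over 12 libraries r of DCN was 0.60 with COL1A1 (permutation p = 0.0397, adjusted p = 0.0567; rho 0.50, permutation p = 0.105, adjusted p = 0.149), a pair that passed the threshold without slick 3, slick 4 or non-slick 3. It was 0.39 with COL1A2 (permutation p = 0.206, adjusted p = 0.258; rho 0.19, permutation p = 0.559, adjusted p = 0.698), 0.20 with COL3A1 (permutation p = 0.529, adjusted p = 0.588; rho 0.14, permutation p = 0.667, adjusted p = 0.741) and 0.07 with SPARC (permutation p = 0.828, adjusted p = 0.828; rho 0.03, permutation p = 0.921, adjusted p = 0.921). Without the 2 libraries farthest from the median of the first gene of each pair, r with DCN was 0.50 for COL1A1 and 0.04 for COL1A2. For COL3A1 it was -0.27 and for SPARC 0.42. Without non-slick 5 alone, r of DCN was 0.38 with COL1A1, 0.13 with COL1A2, -0.13 with COL3A1 and -0.05 with SPARC. The sign with SPARC also turned without non-slick 2 (-0.025) or non-slick 6 (-0.031). Within the 6 non-slick libraries, non-slick 5 among them, r of DCN with the others ran from 0.71 to 0.87, and within the 6 slick libraries it was 0.29 with COL1A1, -0.13 with COL1A2, -0.45 with COL3A1 and -0.44 with SPARC, again without a test of the difference.

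**Figure D3:**
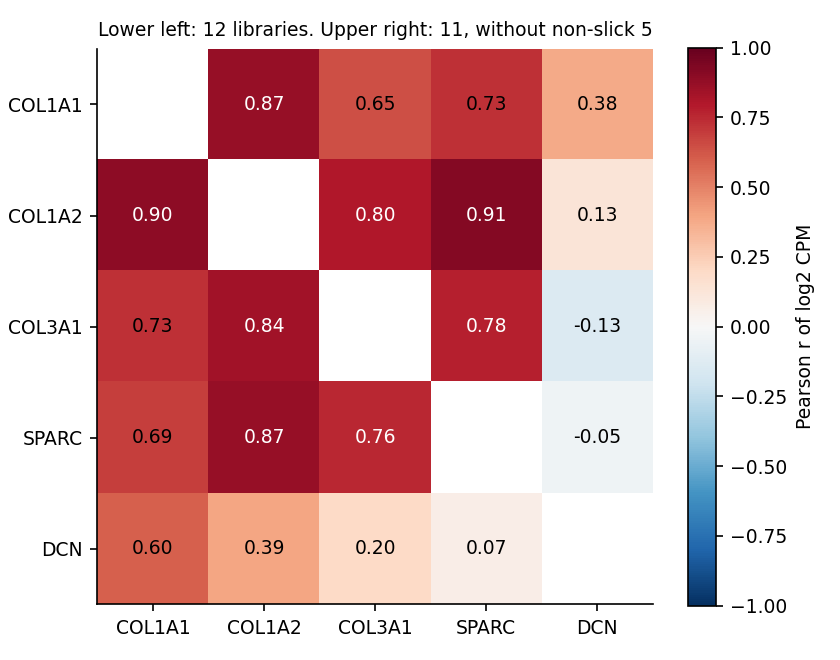
Pearson's r of log2 CPM for each pair of matrix genes, over all 12 libraries in the lower left and over 11 libraries without non-slick 5 in the upper right (colour scale from -1 to 1). The 6 pairs among COL1A1, COL1A2, COL3A1 and SPARC lie between 0.69 and 0.90 over 12 libraries, and the pairs with DCN between 0.07 and 0.60.

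No relation of the 5 genes to sequencing depth was detectable. Over 12 libraries, r of log2 CPM with log2 total count was -0.04 for COL1A1, -0.02 for COL1A2, 0.03 for COL3A1, -0.18 for SPARC and -0.13 for DCN, with permutation p of 0.893, 0.946, 0.941, 0.584 and 0.677. Adjusted over the 5 genes, each p was 0.946. Spearman's rho was 0.08, 0.15, 0.11, 0.08 and -0.16 in the same order, each with an adjusted permutation p of 0.817 (unadjusted 0.817, 0.650, 0.733, 0.817 and 0.619). Without slick 2 and non-slick 2, r was -0.02, 0.05, 0.12, 0.08 and -0.29.

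The matrix genes varied more between libraries than most genes of like abundance. The SD of log2 CPM over 12 libraries was 0.58 for COL3A1, 0.53 for DCN, 0.43 for COL1A1, 0.38 for COL1A2 and 0.32 for SPARC. The median was 0.21 for the 2053 genes with a mean above 100 CPM. Of these abundant genes, 95.7% had a smaller SD than COL3A1, 94.5% than DCN, 89.0% than COL1A1, 84.1% than COL1A2 and 76.0% than SPARC. The share of the variance of log2 CPM that lay between genotypes was 21.5% for SPARC, 15.01% for COL3A1, 11.5% for COL1A2, 10.6% for COL1A1 and 2.91% for DCN. Over all tested genes it had a mean of 10.3% and a median of 5.88%, so that the shares of COL1A1 and COL1A2 were near the mean. In the non-slick group the SD of log2 CPM of COL1A1 was 0.50 with non-slick 5 and 0.29 without it, and that of COL3A1 0.59 and 0.34.

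Ratios of 2 genes within a library need no scaling between libraries, and they showed how far the balance of the matrix genes held from explant to explant. The ratio of COL1A1 to COL1A2 counts varied least of the 4 fixed ratios, with an SD of 0.19 on the log2 scale. It was 1.30 ± 0.218 in slick and 1.27 ± 0.125 in non-slick explants (SD, n = 6 each), from 1.02 in slick 4 to 1.61 in slick 1. The difference in mean log2 ratio was 0.02 (two-sided exact permutation test over 924 splits, p = 0.868, adjusted over 4 ratios p = 0.924). The ratio of the 2 chain genes therefore spanned 1.58-fold between libraries, while COL1A1 itself spanned 2.72-fold and COL1A2 2.27-fold. The ratio of SPARC to COL1A2, among 6 ratios added after these values were seen, had the same SD to 2 decimals (0.19) and spanned 1.53-fold.

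The ratio of COL3A1 to COL1A1 ran from 0.875 to 1.22 in non-slick and from 0.759 to 2.34 in slick libraries. Slick 6 held the 2.34, where the next library, slick 4, had 1.36: its COL3A1 was the highest and its COL1A1 the lowest of the slick group. The difference in mean log2 ratio was 0.16 (exact permutation p = 0.561, adjusted p = 0.924), and -0.02 without slick 6. SPARC to COL1A1 was 2.82 ± 0.71 in slick and 2.76 ± 0.487 in non-slick explants (SD, n = 6 each, difference in log2 ratio 0.02, exact permutation p = 0.924, adjusted p = 0.924). The extremes were 3.96 in slick 4 and 1.84 in non-slick 5.

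DCN to COL1A1 had the largest fitted difference of the 4 ratios. It ran from 1.01 to 2.11 in slick libraries, with a median of 1.52, and from 1.33 to 2.55 in non-slick libraries, with a median of 2.22. All 6 slick libraries lay below the non-slick median and 4 of 6 non-slick libraries above every slick library, yet non-slick 4 and non-slick 6 overlapped the slick range. The difference in mean log2 ratio was -0.44 (exact permutation p = 0.0823, adjusted over 4 ratios p = 0.329), which did not pass the threshold. The other 6 ratios among the 5 genes were added after these values were seen. The mean log2 ratio of DCN to each of the other genes was lower in the slick group, with differences of -0.42 against COL1A2 (exact permutation p = 0.177), -0.60 against COL3A1 (exact permutation p = 0.143) and -0.46 against SPARC (exact permutation p = 0.206). Adjusted over all 10 ratios, the exact permutation p of each of these 4 DCN ratios was 0.514, and they share the DCN counts. Without non-slick 5 the DCN differences were -0.35 against COL1A2, -0.60 against COL3A1 and -0.31 against SPARC. Without slick 2 and slick 4 they were -0.22, -0.45 and -0.18, and DCN to COL1A1 was -0.32.

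**Figure D4:**
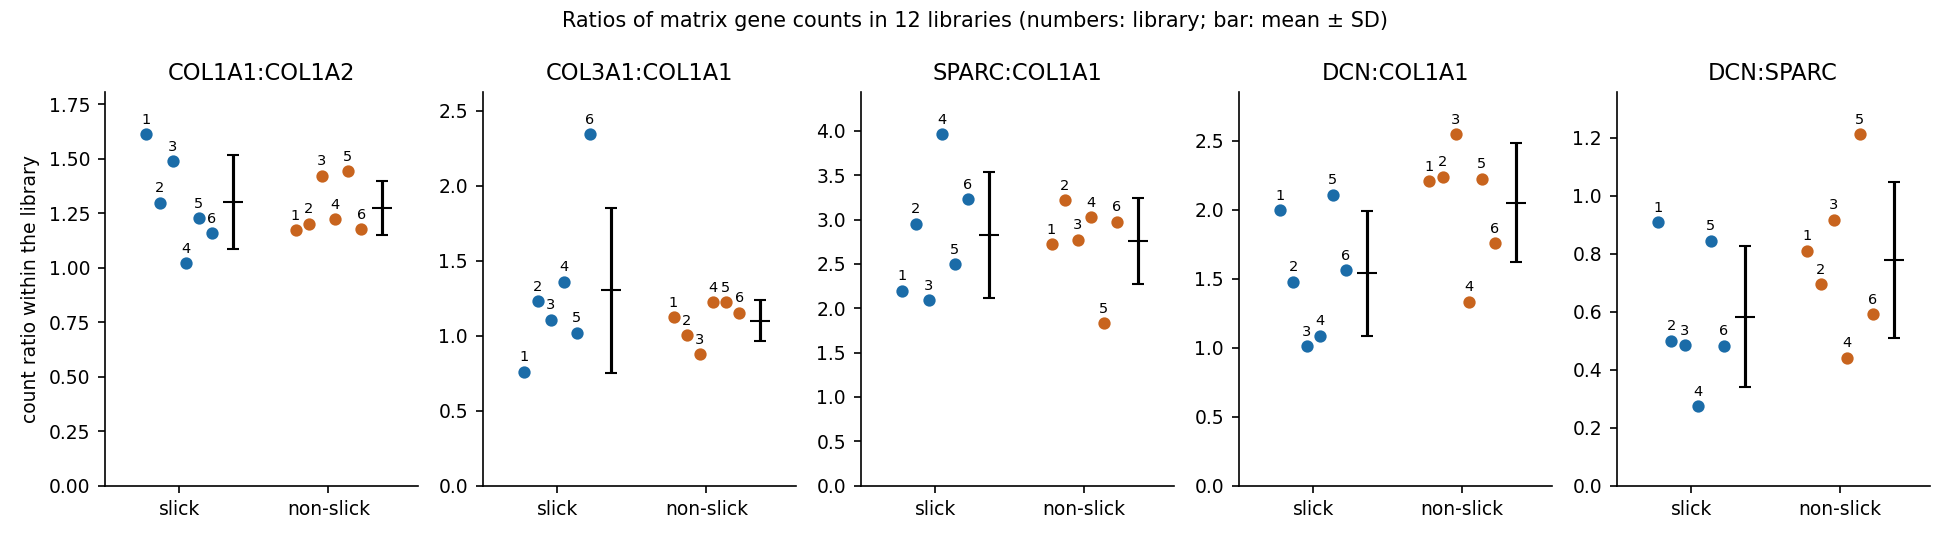
Ratio of the counts of 2 matrix genes within each library (vertical axes, one scale per ratio, starting at 0), with the replicate number above each point and the mean ± SD beside each group (n = 6). COL1A1 to COL1A2 stays between 1.02 and 1.61, slick 6 stands out for COL3A1 to COL1A1 at 2.34, and DCN to COL1A1 lies below 2.22, the non-slick median, in all 6 slick libraries.

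A mean profile of the 5 genes was taken as the mean of their standardised log2 CPM in each library. It was highest in non-slick 5 (1.44) and slick 3 (0.90), and lowest in non-slick 2 (-1.40) and non-slick 6 (-0.99). Non-slick 5 and slick 2 had all 5 genes above their means, and non-slick 2, 4 and 6 had none. The profile is made from the members, which raises its r with each: 0.97 for COL1A2, 0.95 for COL1A1, 0.85 for COL3A1, 0.82 for SPARC and 0.55 for DCN. Even so, DCN stood only at place 789 among all tested genes by this r, beside place 13 for COL3A1 and place 36 for SPARC. Among the genes outside the 5, 4 had an r above 0.9 with it over 12 libraries. The 2 closest were ENSBTAG00000004893 (r = 0.93), with 13.5 ± 1.29 CPM in the slick and 11.99 ± 3.3 CPM in the non-slick group, and ENSBTAG00000014137 (r = 0.92), with 12.96 ± 2.14 and 11.1 ± 4.26 CPM (SD, n = 6 each). The sources used here do not pair these 2 IDs with names.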

How the data were processed

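RNA of 12 skin explants, 6 slick and 6 non-slick, was sequenced after selection of polyA RNA, per the labels' protocols. The authors deposited whole-number read counts for each gene, not normalized. STAR, HTSeq, FastQC and R 4.3.1 are listed in the submitters' processing notes with no role or order. Genome build, annotation release and strand setting are not given in the sources used here: reads shared with overlapping or antisense genes cannot be told apart. Total counts per library ran from 10903164 to 22036904. For the matrix genes, counting error was at most 2.15% of a value, less than the spread between libraries.

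Genes kept by filterByExpr were scaled by TMM (the trimmed mean of M values) and tested between genotypes in edgeR 4.0.16 by quasi-likelihood (robust, no other term) in R 4.3.3. Log2 CPM used a prior count of 2. Alternatives used DESeq2 1.42.0, limma 3.58.1 (voom with quality weights), a replicate block, other scalings and filters, and fits without each library. Correlations and ratios used permutation tests in Python 3.11.15 with numpy 2.4.6. The tests were tried on simulated data.

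The 5 genes and the tests were chosen with earlier results of these data known. Named genes are the 5 and the 2 genes closest to their profile. Lists of other matrix genes and of cell markers were not analysed here, since the RefSeq table (37063 genes, assembly not tied to the files) gave an Ensembl ID for 0 genes. Replicate numbers were not taken as pairs in the main tests: deviations of same-numbered libraries correlated at -0.09 to 0.26. For slick 5 and slick 6 the same-numbered library was the closest non-slick match, and for slick 1 to slick 4 it was not.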

Additional observations from a re-analysis of the deposited data

Results flagged for a closer look

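In groups of 6 libraries, a value was singled out when its gap to the nearest other, divided by the range of the group, exceeded Dixon's critical value for groups of this size. Of 22 groups of values examined, 4 held such a library, where chance gives about 1 in 20, and several of these groups share the same counts. Non-slick 5 stood apart for COL1A1, at 499.9 CPM (gap 0.648 of the range), for COL3A1, at 612 CPM (0.656), and for the ratio of SPARC to COL1A1 counts, at 1.84 (0.638). Slick 2 stood apart for its total count of 10903164 (0.663).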

How the results depend on the processing

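COL1A1, COL1A2, COL3A1 and SPARC had a higher slick estimate in 21 of 21 alternatives, and their adjusted p ran from 0.656 to 0.9997. DCN had a lower one in 20 of 21. With 1 library left out, the edgeR log2 fold change ran from 0.10 to 0.45 for COL1A1, 0.14 to 0.39 for COL1A2, 0.28 to 0.68 for COL3A1, 0.22 to 0.39 for SPARC and -0.37 to 0.0082 for DCN. The replicate block gave 0.27, 0.25, 0.44, 0.28 and -0.17 in that order, called 0 genes and changed no call. The count of 0 genes called became 4 with DESeq2 and ran from 0 to 2 with 1 library left out, 2 of them without non-slick 4. Differences in log2 ratio ran from -0.0446 to 0.0871 for COL1A1:COL1A2, -0.0243 to 0.30 for COL3A1:COL1A1, -0.10 to 0.10 for SPARC:COL1A1 and -0.56 to -0.33 for DCN:COL1A1 with 1 library left out. For the added SPARC:COL1A2 they ran from -0.0375 to 0.0804. Without slick 2 and slick 4, SPARC:COL1A1 was -0.14 and SPARC:COL1A2 -0.0392. With same-numbered libraries taken as pairs, a sign-flip test gave DCN:COL1A1 an unadjusted p of 0.03125 (adjusted p = 0.125), which did not pass the threshold. The 6 pairs past the threshold for correlation became 3 to 7 with 1 library left out: 3 without non-slick 2, when COL1A1 with COL3A1, COL1A1 with SPARC and COL3A1 with SPARC missed it (adjusted permutation p = 0.0759, 0.0799 and 0.0545), and 7 without slick 3, slick 4 or non-slick 3 or with genotype means removed, when COL1A1 with DCN also passed. Over the same fits, r ran from -0.13 to 0.34 for COL3A1 with DCN and from -0.0454 to 0.36 for SPARC with DCN. The cause of these changes was not tested. With genotype means removed, the permutation p can be too small, as said above. Counting error, at most 2.15% of a value, was small beside the spread between libraries.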
